A study of Mus musculus with 6 samples.

Results

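The genes described here are 37 genes of triglyceride and phospholipid synthesis, measured by RNA sequencing in whole mouse liver. They were chosen by name, for the enzyme each encodes and not for any measured value, from the 35540 gene symbols in the transcript table. Earlier results of these data were known when the choice was made. The study asked what becomes of liver and plasma lipids when hepatocytes lose Surf4, the cargo receptor that carries lipoproteins and other secreted proteins from the endoplasmic reticulum towards the Golgi. The 6 livers fall into 2 groups of littermates, 3 labelled Surf4 fl/fl Alb-Cre+ and, as controls, 3 labelled Surf4 fl/fl Alb-Cre-, with 2 males and 1 female in each. All 6 mice carried 2 floxed Surf4 alleles on a C57BL/6J background, ate the 5L0D diet and, per the study's methods, were fasted overnight before tissue was taken; their ages are not given in the labels. The albumin promoter drives Cre in hepatocytes. The study judged that the unexcised Surf4 RNA left in Alb-Cre+ livers likely came from other liver cells. The female is replicate 2 in each group.

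Hepatocytes build triglycerides and most phospholipids from glycerol 3-phosphate. Acyltransferases add fatty acids to it to give phosphatidic acid, and lipins remove the phosphate to give diacylglycerol. Diacylglycerol then takes a further fatty acid to become triglyceride, or a choline or ethanolamine head group to become phosphatidylcholine or phosphatidylethanolamine. Liver also methylates phosphatidylethanolamine to phosphatidylcholine, and phosphatidylcholine coats the very low density lipoprotein particles in which liver exports triglyceride.

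Levels are given in TPM, a transcript abundance already divided by transcript length, so that genes can be set beside each other. Surf4 itself stood at 59.0, 71.8 and 54.3 TPM in Alb-Cre+ mice 1, 2 and 3 and at 92.5, 94.5 and 92.5 TPM in Alb-Cre- mice 1, 2 and 3. The genotypes did not overlap, and Surf4 was lower by a log2 fold change of -0.60 ± 0.13 (SE) with an adjusted p of 1.00 by limma. The exact two-sided permutation test gave p = 0.1, the smallest that 3 mice against 3 allow. The deleted allele removes exon 2 only, so reads from the other exons still count towards Surf4. The 4 Y-linked genes checked were at 1.83 TPM or more in every mouse labelled male and at 0.0637 TPM or less in both labelled female. Defining hepatocyte markers were abundant in every liver, with Alb between 38059 and 55647 TPM. The 8 hepatocyte markers summed to 61245 to 83003 TPM in Alb-Cre+ livers and 79977 to 87833 TPM in Alb-Cre- livers, with Apoa1 (8802 to 10222 against 15764 to 20844 TPM) and Ttr (3406 to 4281 against 4852 to 5046 TPM) lower in every Alb-Cre+ mouse than in any control. The sums of the 6 Kupffer cell and macrophage markers (116 to 461 against 158 to 424 TPM), of the 6 sinusoidal endothelial markers (77.0 to 188 against 106 to 166 TPM) and of the 6 stellate cell markers (125 to 251 against 103 to 264 TPM) overlapped between the genotypes. The 5 cholangiocyte markers summed to 23.3 to 39.2 against 15.0 to 59.2 TPM, the 5 lymphocyte markers to 3.30 to 10.4 against 3.50 to 10.1 TPM and the 3 red blood cell markers to 88.0 to 201 against 68.2 to 282 TPM. The 5 adipocyte markers summed to 131.07 to 196 against 70.1 to 131.06 TPM, so that the genotypes all but met. Nearly all of it was Car3, whose own values overlapped. Adipoq and Plin1 reached at most 0.247 and 0.747 TPM, and Lep was at 0 in every mouse. The 4 pancreatic acinar markers summed to at most 1.10 TPM, with Cpa1 and Prss2 at 0 throughout.

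Of the 37 genes, 33 averaged at least 1 TPM over the 6 mice and 9 averaged at least 100 TPM. The highest was Pemt, which encodes the enzyme that methylates phosphatidylethanolamine, at a mean of 311 TPM. Etnk2 (292 TPM), an ethanolamine kinase, Dgat2 (273 TPM), which adds the last fatty acid of triglyceride, Gpd1 (253 TPM), which makes glycerol 3-phosphate, and Agpat3 (200 TPM), a lysophosphatidate acyltransferase, came next. Agpat3 ran from 176 to 214 TPM over the mice and Chpt1, the sixth at 194 TPM, from 177 to 212 TPM, so that these neighbours in the order did not differ beyond their spread. At the other end Mboat2, an acyltransferase acting on lysophospholipids, did not exceed 0.0739 TPM in any mouse. It was the only one of the 37 genes to fall under the filter of a mean of 0.1 TPM, which left 36 genes for testing among 14189.

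**Figure D1:**
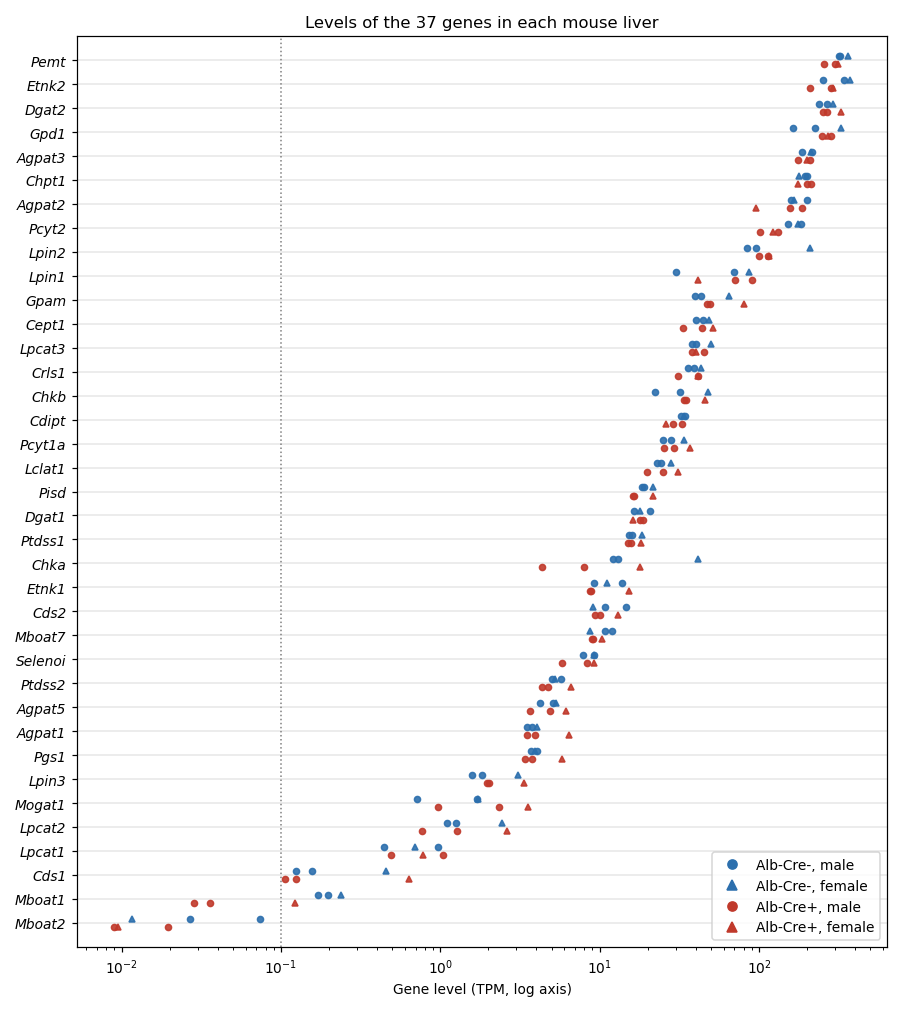
Level of each of the 37 genes in each of the 6 livers, in TPM on a log axis, ordered by the mean; circles are males, triangles females, blue Alb-Cre- and red Alb-Cre+. Pemt is highest at a mean of 311 TPM, Mboat2 lies left of the dotted line at 0.1 TPM in every mouse, and the blue and red symbols of most genes intermingle.

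Sequence is shown for Pemt, Gpam and Chka, because the transcript table shows which of their start sites the livers used or because they led the comparisons below. Each is the stretch of 250 bases just before a RefSeq start site (GRCm38.p6), written 5′ to 3′ on the gene's strand. Capitals mark a CCAAT box or a GC box read on either strand. E-box and TATA box letters were searched as well and occur in none of the 5. Pemt has a start at position 60040188 of chromosome 11 that carried 0.0921% to 0.521% of its TPM, counting transcripts that begin within 500 bases, and another at 60037005 that carried 96.8% to 97.8% in every mouse. The stretch before the little-used start (chr11:60040189-60040438, minus strand) holds 1 CCAAT match, and the stretch before the used start (chr11:60037006-60037255, minus strand) holds none of the 4 motifs. Gpam, the mitochondrial glycerol-3-phosphate acyltransferase gene, began mainly at 55127238 of chromosome 19 (92.1% to 96.6% of its TPM; sequence chr19:55127239-55127488, minus strand) and little at 55099477 (3.17% to 7.71%; chr19:55099478-55099727, minus strand). Chka, a choline kinase gene, began at 3851773 of chromosome 19 in 60.6% to 80.9% of its TPM (chr19:3851523-3851772, plus strand).
Pemt, little-used start: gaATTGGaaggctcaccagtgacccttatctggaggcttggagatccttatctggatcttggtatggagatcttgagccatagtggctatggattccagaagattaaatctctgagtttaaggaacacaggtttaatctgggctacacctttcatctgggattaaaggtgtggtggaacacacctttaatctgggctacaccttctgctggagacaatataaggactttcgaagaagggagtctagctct
Pemt, used start: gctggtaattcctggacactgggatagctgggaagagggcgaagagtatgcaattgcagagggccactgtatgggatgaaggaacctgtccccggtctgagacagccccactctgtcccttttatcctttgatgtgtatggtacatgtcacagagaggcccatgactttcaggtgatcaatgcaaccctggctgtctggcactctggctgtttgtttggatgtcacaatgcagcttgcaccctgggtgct
Gpam, main start: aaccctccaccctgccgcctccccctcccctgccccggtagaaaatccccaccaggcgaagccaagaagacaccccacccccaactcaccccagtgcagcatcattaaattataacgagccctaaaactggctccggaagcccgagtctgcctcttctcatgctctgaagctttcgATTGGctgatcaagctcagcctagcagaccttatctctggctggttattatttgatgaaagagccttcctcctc
Gpam, minor start: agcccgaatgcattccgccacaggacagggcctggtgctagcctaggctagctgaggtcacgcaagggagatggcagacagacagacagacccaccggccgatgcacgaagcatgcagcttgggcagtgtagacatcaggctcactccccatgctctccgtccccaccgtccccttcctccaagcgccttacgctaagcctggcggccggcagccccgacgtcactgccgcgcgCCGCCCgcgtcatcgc
Chka, main start: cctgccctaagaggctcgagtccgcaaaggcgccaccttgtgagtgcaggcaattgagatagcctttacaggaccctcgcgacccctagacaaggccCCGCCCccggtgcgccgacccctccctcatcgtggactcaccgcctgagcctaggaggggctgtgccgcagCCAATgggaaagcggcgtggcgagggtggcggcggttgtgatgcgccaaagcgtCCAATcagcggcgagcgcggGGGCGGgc

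The letters searched, on both strands, were CCAAT for the CCAAT box, GGGCGG for the GC box, CACGTG for the E-box and TATAAA for the TATA box, none of which overlapped another match in the sequences shown. Among the 32851 RefSeq promoters, 33.9% hold the CCAAT box, 32.7% the GC box, 6.02% the E-box and 12.4% the TATA box within this window. RefSeq entries were at hand for 30 of the 37 genes, with 43 starts, and 34.9%, 62.8%, 4.65% and 4.65% of these held the same motifs. A match is a description of the letters and not a binding site. No entry was at hand for Pcyt2, Gpd1, Dgat1, Dgat2, Ptdss1, Cdipt and Agpat5.

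The main comparison, Alb-Cre+ against Alb-Cre-, asked whether the genes that make triglyceride and phospholipid differ in livers whose hepatocytes lack Surf4. None of the 36 genes passed an adjusted p of 0.01 by limma, nor did any of the 14189 genes tested (0%). The deleted gene Surf4 did not pass either, so a lack of calls is not a lack of differences. The study's own DESeq2 comparison reported genes higher and lower at a false discovery rate under 0.01, with Derl3 the most significant of the higher ones. Among the lower ones the study named several fatty acid biosynthesis genes. At an unadjusted p under 0.05, 2 of the 36 were called, both lower in Alb-Cre+ livers, beside 1.76% of all genes (250, of which 0.958% lower and 0.803% higher). They were Pcyt2 and Mboat1. Mice with the same number deviated together from their group means. The female is mouse 2 in both groups, so this pairing includes sex. With the number kept as a block 5 of the 36 had p under 0.05, beside 4.69% of all genes (666, of which 2.42% lower and 2.28% higher). Again none passed the adjusted threshold. The additional 3 were Chka, lower in Alb-Cre+ livers, and Gpam and Mogat1, higher. The median log2 fold change over the 36 was -0.05, with 13 genes higher and 23 lower, beside -0.0017 over all genes tested, of which 7044 were higher. The 95% interval lay between -1 and 1 for 28 of the 36 genes, and 30 had a fold change below 0.25 in size. These are bulk livers, in which fewer cells of a type and less RNA per cell cannot be told apart.

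**Figure D2:**
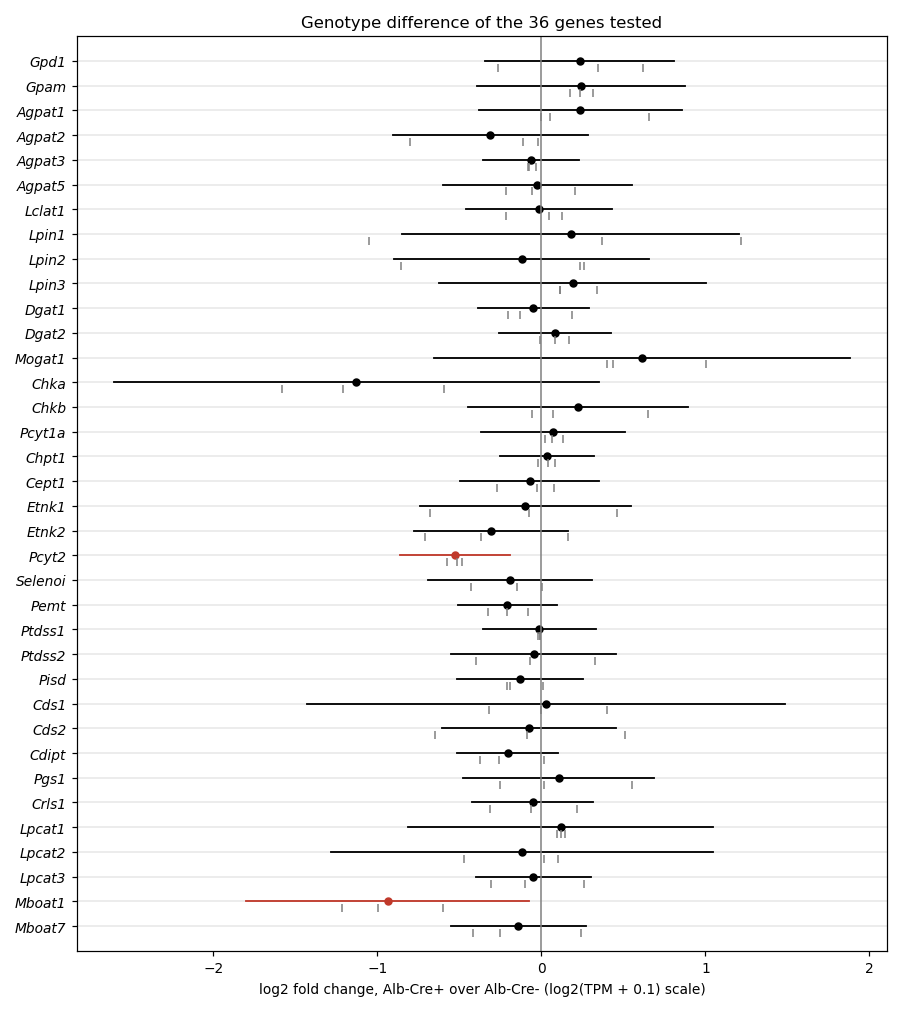
Log2 fold change of Alb-Cre+ over Alb-Cre- for the 36 genes tested, in pathway order, on the log2(TPM + 0.1) scale; dots are estimates, bars 95% intervals, grey ticks the 3 same-numbered pairs, red an unadjusted p under 0.05. The intervals of Pcyt2 and Mboat1 lie below 0, and those of the other 34 genes include 0.

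Pcyt2 (chr11:120610087-120617936, minus strand) encodes the enzyme that makes CDP-ethanolamine, the controlling step of phosphatidylethanolamine synthesis from ethanolamine. It stood at 131, 123 and 102 TPM in Alb-Cre+ mice 1, 2 and 3 and at 183, 175 and 151 TPM in Alb-Cre- mice 1, 2 and 3. The genotypes did not overlap. The means were 118 ± 15.0 and 170.0 ± 16.6 TPM (SD, n = 3 each), a log2 fold change of -0.52 ± 0.14 (SE; 95% interval -0.86 to -0.19), or 0.695 of the control level. The 3 same-numbered pairs gave differences of -0.48, -0.52 and -0.57, the second of them between the females. The limma p was 0.0077 unadjusted and 1.00 adjusted over all genes, and with the block the adjusted p was 0.431. Whichever mouse was left out, the unadjusted p stayed between 0.0083 and 0.033. Its counterpart in the choline branch, Pcyt1a, ran from 25.2 to 36.8 TPM in Alb-Cre+ mice and from 24.9 to 33.6 TPM in controls. Within each mouse Pcyt2 exceeded Pcyt1a by 4.49, 3.33 and 4.03 times in Alb-Cre+ mice and by 6.58, 5.21 and 6.09 times in controls, a ratio chosen after its values were seen and one that no scaling of a library can move. The exact permutation test of this ratio gave p = 0.1, again the smallest possible.

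The other ethanolamine genes were each lower on average without passing a test, and the genotypes overlapped in each. Etnk2, the more abundant of the kinases that phosphorylate ethanolamine, was at 282, 290 and 210 TPM in Alb-Cre+ mice and 252, 374 and 344 TPM in controls, which overlap (log2 fold change -0.31 ± 0.20, SE; -0.47 to -0.16 with 1 mouse left out). Etnk1 was at 8.77, 15.3 and 8.64 TPM in Alb-Cre+ mice and 9.22, 11.1 and 13.9 TPM in controls. Its log2 fold change was -0.10 ± 0.27 (SE), well within its error. The control mean rests in part on mouse 3, which is flagged below as set apart among the males. Etnk1 held 2.88% to 5.02% of the TPM of the kinase pair. Selenoi, the ethanolaminephosphotransferase that finishes the branch, spanned 5.83 to 9.22 TPM with a log2 fold change of -0.19 ± 0.21 (SE).

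Pemt (chr11:59970614-60046489, minus strand) was at 299, 312 and 257 TPM in Alb-Cre+ mice and 316, 361 and 322 TPM in controls. Every Alb-Cre+ value lay under every control value, though the nearest ones, 312 and 316 TPM, were close. The log2 fold change was -0.21 ± 0.13 (SE), with an unadjusted limma p of 0.154, and ran from -0.26 to -0.12 with 1 mouse left out. Pemt, Pcyt2 and Mboat1 were the 3 of 36 genes whose genotypes did not overlap, all lower in Alb-Cre+ mice, beside 4.90% of all genes (2.71% lower and 2.18% higher).

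In the choline branch, Chka (chr19:3851773-3894369, plus strand) stood at 8.00, 17.8 and 4.32 TPM in Alb-Cre+ mice 1, 2 and 3 and at 12.1, 41.4 and 13.1 TPM in Alb-Cre- mice 1, 2 and 3. The groups overlapped in that the Alb-Cre+ female exceeded both control males, while each Alb-Cre+ mouse was below the control of the same number and sex. The log2 fold change of -1.13 ± 0.63 (SE) had an unadjusted p of 0.115 without the block. With the block its error was 0.21, its p 0.0022 and its adjusted p 0.471. The pairs differed by -0.59, -1.21 and -1.58. Protein coding transcripts held 46.3%, 73.7% and 71.5% of Chka TPM in Alb-Cre+ mice and 59.8%, 47.6% and 67.1% in controls. The Chka total is therefore not all coding RNA, and its coding part alone was not tested. Without the block, leaving out 1 mouse moved the value to between -1.66 (without the Alb-Cre+ female) and -0.56 (without the Alb-Cre- female), and to -0.64 without Alb-Cre+ mouse 3. Chkb, the other choline kinase, was at 33.7, 46.2 and 34.8 TPM in Alb-Cre+ mice and 32.0, 47.9 and 22.1 TPM in controls. Chka therefore held 19.2%, 27.9% and 11.0% of choline kinase TPM in Alb-Cre+ mice and 27.5%, 46.3% and 37.2% in controls, shares that meet at the Alb-Cre+ female and the first control. Chkb shares 47.9% of its transcript sequence, in stretches of 31 bases, with the read-through model Gm44502, so its level is uncertain. Chpt1 and Cept1, whose products join choline to diacylglycerol, stayed within 177 to 212 and 33.3 to 51.2 TPM. Their log2 fold changes were 0.03 ± 0.12 and -0.07 ± 0.18 (SE).

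At the head of the pathway Gpam was at 46.9, 80.9 and 49.2 TPM in Alb-Cre+ mice 1, 2 and 3 and at 39.7, 64.9 and 43.6 TPM in Alb-Cre- mice 1, 2 and 3. The genotypes overlapped, and within each pair the Alb-Cre+ mouse was higher, by 0.24, 0.32 and 0.17 on the log2 scale. Its p was 0.397 without the block and 0.0441 with it (adjusted p 0.999), for a log2 fold change of 0.24. Gpd1 ran from 249 to 284 TPM in Alb-Cre+ mice and from 162 to 325 TPM in controls. Among the lysophosphatidate acyltransferases Agpat2, at 187, 95.7 and 157 TPM against 201, 167 and 159 TPM, had a log2 fold change of -0.31 ± 0.25 (SE), and the groups overlapped. This value rested on the Alb-Cre+ female, without which it was -0.03; it was -0.21 without Alb-Cre- mouse 1 and -0.51 without Alb-Cre+ mouse 1. Agpat2 and Agpat3 together supplied most of this step, with 28.1% to 45.0% and 47.7% to 59.1% of its TPM, and the lowest Agpat2 share belonged to the Alb-Cre+ female. Agpat1, Agpat5 and Lclat1 spanned 3.52 to 6.40, 3.64 to 6.18 and 19.7 to 30.8 TPM.

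The lipins, the phosphatases that yield diacylglycerol, varied more among mice than between genotypes. Lpin1 was at 70.7, 41.6 and 89.9 TPM in Alb-Cre+ mice and at 30.3, 86.3 and 69.6 TPM in controls. Its pairs went in opposite directions, and its 95% interval ran from -0.85 to 1.21. Lpin2 was at 100.2, 116 and 113 TPM against 83.6, 210.2 and 96.3 TPM, with the control female far above the rest. Lpin3 held at most 2.07% of lipin TPM. Of the genes that finish triglyceride, Dgat2 was at 253, 326 and 266 TPM against 239, 289 and 267 TPM, and Dgat1 was between 16.3 and 20.6 TPM in all 6 mice. Dgat2 made up 92.9% to 95.2% of their joint TPM. The 95% interval of the Dgat2 log2 fold change was -0.26 to 0.42 and that of Dgat1 was -0.38 to 0.29.

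Mogat1 (chr1:78510991-78538173, plus strand), which acylates monoacylglycerol, was low, at 2.34, 3.56 and 0.967 TPM in Alb-Cre+ mice 1, 2 and 3 and 1.70, 1.73 and 0.709 TPM in Alb-Cre- mice 1, 2 and 3. The groups overlapped and each Alb-Cre+ mouse exceeded its same-numbered control. The log2 fold change was 0.61 ± 0.54 (SE) without the block, and went to 0.22 without the Alb-Cre+ female, 0.23 without Alb-Cre- mouse 3 and 1.11 without Alb-Cre+ mouse 3. With the block its unadjusted limma p was 0.0345 and its adjusted p 0.999. Of its exon bases, 12.8% overlap the antisense gene BC035947. Part of its TPM was on processed transcripts, a type annotated without a coding sequence. They held 29.9%, 6.53% and 22.7% in Alb-Cre+ mice and 66.2%, 0% and 51.4% in controls, so the total is not all coding RNA.

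Mboat1 (chr13:30136489-30246717, plus strand), an acyltransferase for lysophospholipids, was barely detected, at 0.0284, 0.123 and 0.0357 TPM in Alb-Cre+ mice and 0.197, 0.237 and 0.171 TPM in controls. The genotypes did not overlap, with a log2 fold change of -0.94 ± 0.37 (SE) on a scale whose pseudocount of 0.1 TPM is as large as the values. The unadjusted p was 0.0372 and the adjusted p 1.00. Leaving out any mouse but the Alb-Cre+ female brought the unadjusted p to between 0.0536 and 0.113. The Mboat1 total is not all coding RNA. Processed transcripts held 0%, 23.6% and 70.4% of it in Alb-Cre+ mice and 28.5%, 65.7% and 70.3% in controls. The coding part alone was not tested. The liver's main enzyme of this kind, Lpcat3, supplied 73.4% to 81.6% of the TPM of the 6 genes and ran from 37.8 to 45.5 TPM in Alb-Cre+ mice and 38.0 to 49.8 TPM in controls. Its 95% interval was -0.40 to 0.30. Mboat7 spanned 8.69 to 12.0 TPM, and Lpcat1 and Lpcat2 spanned 0.443 to 1.04 and 0.772 to 2.62 TPM.

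The phosphatidylserine genes and those that use CDP-diacylglycerol, the activated precursor of phosphatidylinositol and cardiolipin, gave no call in either fit. Ptdss1, which exchanges the head group for serine, was nearly equal in every pair, at 15.1, 18.2 and 15.8 TPM against 15.2, 18.4 and 15.9 TPM. Ptdss2 spanned 4.33 to 6.58 TPM and Pisd, the decarboxylase that turns phosphatidylserine into phosphatidylethanolamine, 16.2 to 21.7 TPM. Pisd shares 21.6% of its transcript sequence with Gm20671, so its level is uncertain. Cdipt, phosphatidylinositol synthase, was at 32.9, 26.2 and 28.8 TPM in Alb-Cre+ mice and at 32.5, 34.0 and 34.5 TPM in controls, overlapping at the first pair. Crls1, cardiolipin synthase, spanned 31.2 to 43.0 TPM, Cds2 9.11 to 14.6 TPM, Pgs1 3.38 to 5.79 TPM and Cds1 0.106 to 0.637 TPM. Over all 36 genes, 12 (5 higher and 7 lower) went in the same direction in all 3 pairs, beside 23.9% of all genes tested (11.5% higher and 12.4% lower).

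**Figure D3:**
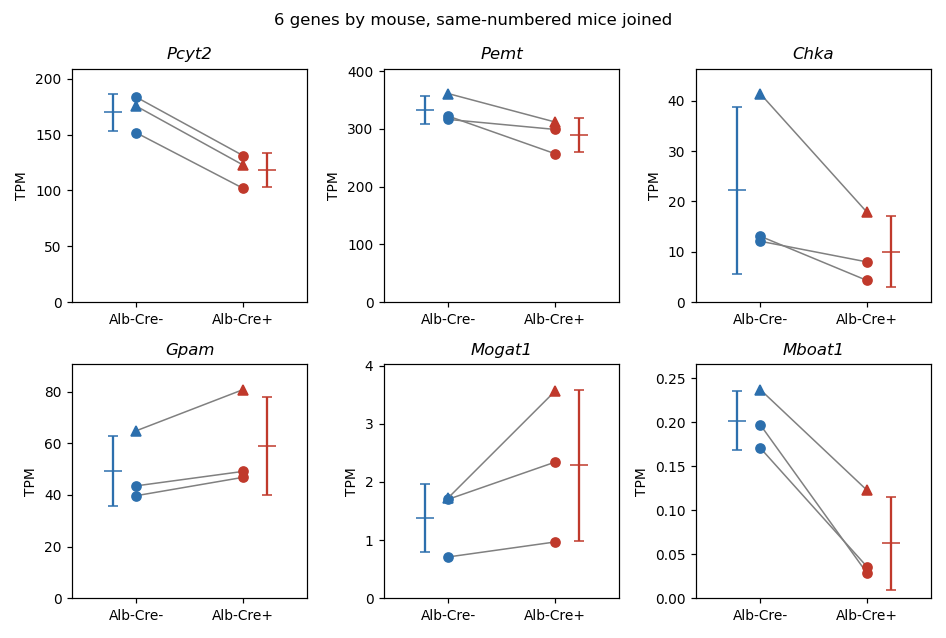
Level in TPM of Pcyt2, Pemt, Chka, Gpam, Mogat1 and Mboat1 in each mouse, with lines joining mice of the same number, triangles for females and bars at the mean ± SD (n = 3). Pcyt2, Pemt and Mboat1 do not overlap between genotypes, while Chka, Gpam and Mogat1 overlap but move the same way along every line.

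The other genes around the pathway were taken as 6 lists of 56 genes, of which 54 were tested. Without the block 1 of the 54, Pnpla7, had p under 0.05. With the block 8 had it, 2 higher and 6 lower (14.8% of the 54, beside 4.69% of all genes). All had adjusted p of at least 0.431. Pnpla7, a hydrolase of lysophosphatidylcholine, was at 54.5, 47.5 and 40.0 TPM in Alb-Cre+ mice and 85.4, 85.8 and 57.2 TPM in controls, without overlap (log2 fold change -0.67 ± 0.20, SE). Gk, glycerol kinase, was at 33.7, 54.7 and 23.3 TPM in Alb-Cre+ mice and 55.0, 76.5 and 42.2 TPM in controls, overlapping between the Alb-Cre+ female and a control male (log2 fold change -0.68 ± 0.11 with the block). Gpat4, a glycerol-3-phosphate acyltransferase of the endoplasmic reticulum, was at 53.3, 48.0 and 64.1 TPM against 63.1, 63.4 and 88.9 TPM (-0.37). The remaining 3 lower genes were Mgll, monoacylglycerol lipase (-0.42), Acsl5, an acyl-CoA synthetase (-0.33), and Ppara, the fasting regulator of fatty acid oxidation (-0.45). The 2 higher ones were Lipe, hormone-sensitive lipase (0.60), and Mlxipl, the carbohydrate-responsive regulator of lipogenesis (0.48). With Gpam higher and Gpat4 lower within each pair, Gpam held 43.4%, 57.1% and 39.6% of the TPM of the 4 glycerol-3-phosphate acyltransferase genes in Alb-Cre+ mice and 35.5%, 42.9% and 31.1% in controls, with overlap at the control female. Srebf1, the insulin-responsive regulator of lipogenesis, was at 14.8, 9.10 and 5.84 TPM against 8.85, 14.3 and 6.62 TPM (-0.03 ± 0.40, SE). The median log2 fold changes of the 6 lists ran from -0.12 to 0.04. No gene of the lists for choline and methyl donor supply or for other phosphatases and lipin partners was called with or without the block.

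**Figure D4:**
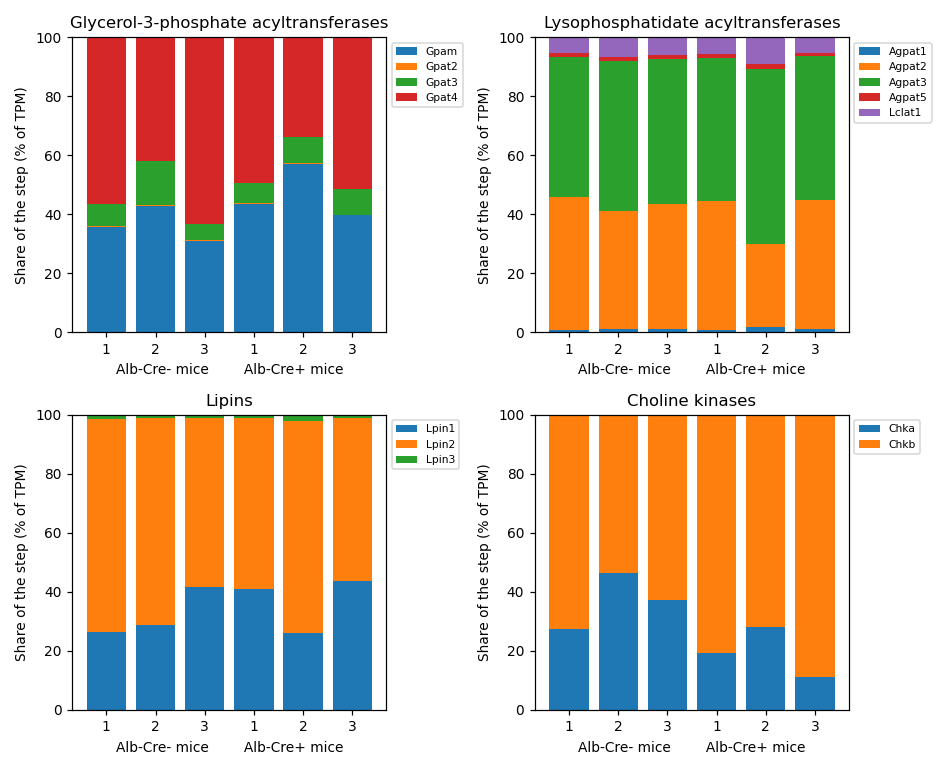
Share of each gene in the TPM of its enzyme step, in percent, for the 3 Alb-Cre- and 3 Alb-Cre+ mice (mouse 2 is the female). In the choline kinase panel the Chka share is 27.5% to 46.3% in controls and 11.0% to 27.9% in Alb-Cre+ mice, while the lipin shares change as much within a genotype as between.

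The design also allows 2 females to be compared with 4 males over both genotypes. The share of the 36 genes that differed was close to that of all genes. By limma 11 of the 36 genes had an unadjusted p under 0.05, all higher in females, or 30.6%, beside 28.7% of all genes tested (25.6% higher and 3.11% lower in females). None passed the adjusted threshold of 0.01 (0.514% of all genes did), and 3 passed 0.05, beside 7.18%. The TPM values as deposited place the median gene 0.26 higher in females on the log2 scale, so that a gene at the median would itself appear higher. Chka was 17.8 and 41.4 TPM in the females and 4.32 to 13.1 TPM in the males, a log2 difference of 1.65 ± 0.24 (SE; adjusted p 0.0188). Gpam was 80.9 and 64.9 TPM in the females and 39.7 to 49.2 TPM in the males (0.70 ± 0.11, adjusted p 0.0198). Cds1, a CDP-diacylglycerol synthase gene of low level, was 0.637 and 0.458 TPM against 0.106 to 0.156 TPM (1.50 ± 0.30, adjusted p 0.0387). These 3 rose in females at the threshold of 0.05 and stood 1.39, 0.44 and 1.24 above the median gene.

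The other 8 were Lpcat2 (1.15), Lpin3 (0.77), Lpin2 (0.67), Chkb (0.64), Pcyt1a (0.40), Lclat1 (0.36), Pisd (0.30) and Dgat2 (0.26), the last no farther up than the median gene. The Lpin2 difference rested on the Alb-Cre- female, at 0.12 without it and 1.23 without the Alb-Cre+ female, and that of Pisd was 0.20 without the Alb-Cre+ female. After median-of-ratios scaling, which brings the median difference to -0.01, 5 of the 36 were higher in females and 5 lower at an unadjusted p under 0.05, beside 13.2% and 14.3% of all genes. The 5 higher were Chka (1.36), Cds1 (1.28), Lpcat2 (0.88), Lpin3 (0.49) and Gpam (0.41), and 2 of the 36 then passed an adjusted p of 0.05, Chka and Cds1, beside 7.07% of all genes. The 5 lower, named after their values were seen, were Agpat2 (-0.76), Chpt1 (-0.47), Cdipt (-0.39), Dgat1 (-0.39) and Mboat7 (-0.38). Dgat2 changed sign to -0.03. Females also had more Kupffer cell and macrophage marker RNA, at 424 to 461 TPM summed over 6 genes against 116 to 181 TPM in males, with all 6 genes at an unadjusted p under 0.05. Of the sinusoidal endothelial markers 3 of 6 were higher in females (166 to 188 against 77.0 to 132 TPM in sum), of the stellate markers 3 of 6, and all 3 red blood cell markers were lower (68.2 to 88.0 against 123 to 282 TPM). After median-of-ratios scaling all 6 Kupffer cell and macrophage markers, 2 of 6 endothelial markers and 0 of 6 stellate markers were higher at an unadjusted limma p under 0.05, and the 3 red blood cell markers were lower. Of the 8 hepatocyte markers 1 was higher and 2 lower in females at that p, and 0 higher and 3 lower after rescaling. Under both scalings 2 of 5 lymphocyte and 1 of 5 adipocyte markers were higher, and 0 of 5 cholangiocyte markers differed. The part of these cells in the sex differences was not tested. Sex also cannot be told apart here from whatever else the 2 mice numbered 2 shared.

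**Figure D5:**
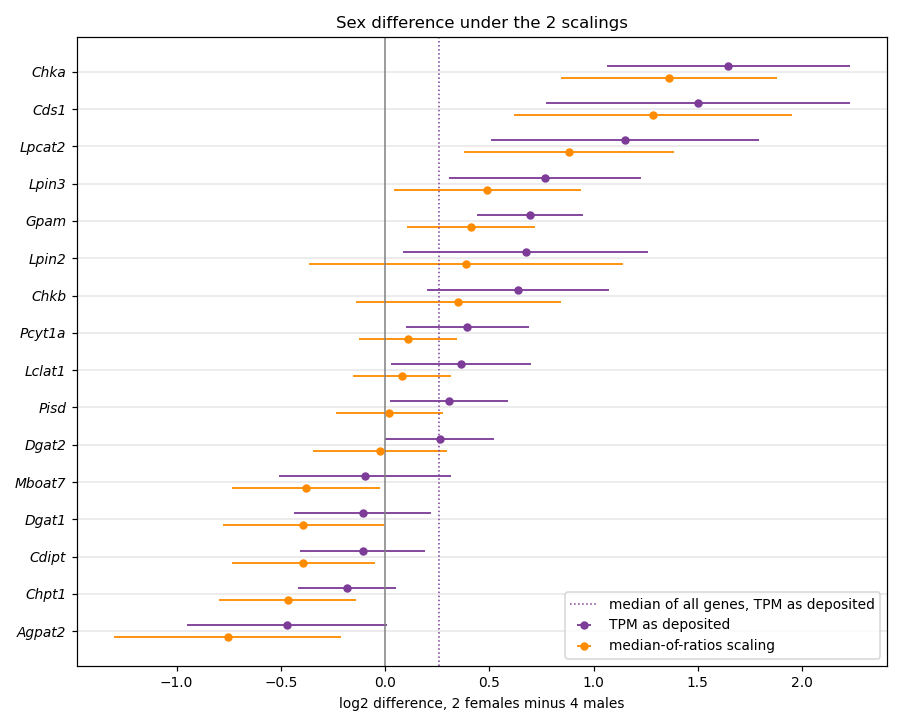
Log2 difference of 2 females minus 4 males, with 95% intervals, for the 16 genes with an unadjusted p under 0.05 under either scaling; purple is TPM as deposited, orange median-of-ratios scaling, the dotted line the median of all genes at 0.26. Chka, Cds1 and Lpcat2 stay far above 0 under both scalings, whereas Dgat2 and Pisd lie near the dotted line and near 0 after rescaling.

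The genes differed in how far a single transcript carried them. They had 282 transcripts in the table. In 20 of the 37 genes the leading transcript held at least 70% of the TPM in every mouse. Among these were Pcyt2 (77.0% to 86.9%), Dgat2 (98.7% to 99.5%) and Pemt (96.3% to 97.3%). In the rest it held less than 70% in at least 1 mouse, as in Agpat3 (38.0% to 43.2%). The leading transcript was annotated as protein coding in 34 genes by GENCODE M21. In the other 3 it was annotated for nonsense mediated decay, with 60.4% to 66.1% of Chpt1, 34.0% to 44.2% of Cdipt and 44.6% to 64.1% of Pgs1. Chka was spread over 14 transcripts, of which the leading one held 23.8% to 39.9%. Its protein coding transcripts together held 46.3% to 73.7%, so its genotype and sex values are not of coding RNA alone.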

How the data were processed

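Liver RNA of 6 mice was sequenced, 1 library per mouse. The authors deposited a table of 116748 transcripts in TPM, scaled to transcript length and to the same total in each mouse. The submitters' processing notes, for what the authors ran, name STAR, RSEM, Salmon and DESeq2 and the build GRCm38, without versions. The authors' own comparison, a second table with fold changes and p-values, was not used.

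TPM were summed per gene symbol, without 163 transcripts that have none (0.0515% to 0.0887% of TPM). Genes averaging at least 0.1 TPM were fitted as log2(TPM + 0.1), which understates changes of low genes, with limma 3.58.1 (R 4.3.3, trended prior) and Benjamini-Hochberg adjustment over 14189 genes, for genotype and, separately, sex. The fit was tested on simulated data in which mice varied independently, so that test does not cover the shared deviations given below. Library depth is not given in the sources used here, so no counting interval is given. Deviations from the group means correlated at 0.367, 0.588 and 0.370 for same-numbered mice and at most 0.171 otherwise, so the numbers were taken to pair the mice, from the data and not from a stated litter or batch. The 0.588 is that of the females, where number and sex cannot be told apart. The group means include the female, so sex also enters the deviations of the males. Differently numbered males of unlike genotype correlated at 0.0914 and 0.171, beside 0.367 and 0.370 for same-numbered males. Deviations within a group balance out, so these correlations depend on one another. Exact permutation tests used scipy.

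The genes and lists were chosen with earlier results of these data known. Genes are described in full where their unadjusted p was under 0.05 with or without the block, where genotypes did not overlap, and for the 5 highest levels and the 5 greatest fold changes at 1 TPM or more; for sex, at an unadjusted p under 0.05. Coordinates and overlaps are from GENCODE M21; 115637 of the table's transcript identifiers are in it, 13 with the same version. Alternatives were the block, the pseudocount, the filter, the scaling, the trend, sex as a covariate, the threshold and each mouse left out.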

Additional observations from a re-analysis of the deposited data

Results flagged for a closer look

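Lpin2 had an unadjusted p under 0.05 for a difference between the sexes in its genotype effect, which did not hold after adjustment. The log2 difference of Alb-Cre+ against Alb-Cre- in the female pair minus that in the males was -1.11 (p 0.00727 unadjusted and 0.775 adjusted by limma with an interaction term, a fit added after seeing the data). The females stood at 116 TPM (Alb-Cre+) and 210.2 TPM (Alb-Cre-), and the males at 100.2 and 113 against 83.6 and 96.3 TPM. It was the only one of the 36 genes with an interaction p under 0.05, a share below the 6.08% of all genes (862), and the smallest adjusted p over all genes was 0.301. Each genotype has 1 female, so the spread comes from the males.

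Etnk1 had a mouse set apart among the 4 males: its gap to the nearest male was 0.890 of the range, above Dixon's 95% critical value for 4 mice. The males were at 8.77 and 8.64 TPM (Alb-Cre+) and at 9.22 and 13.9 TPM (Alb-Cre-), the last being the third Alb-Cre- mouse. Both genotypes were pooled for this, so any genotype difference is part of the spread. Of 36 genes tested this way it was the only one so marked, and chance marks about 1 in 20.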

How the results depend on the processing

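The replicate block moved the count of genes with an unadjusted p under 0.05 for genotype from 2 to 5 of 36, and that of the other pathway genes from 1 to 8 of 54. The block with median-of-ratios scaling, added after seeing the data, gave 5 and 7, and sex as a covariate gave 4 and 6. With a pseudocount of 1 TPM 1 of 36 was left, Pcyt2, and Mboat1 had an unadjusted p of 0.0614. A minimum mean of 1 TPM and leaving out transcripts under 0.1 TPM each gave 1, of 33 and 35 genes tested, since both take Mboat1 out. Median-of-ratios scaling gave 2 of the other pathway genes. No alternative put any of the 36 genes past an adjusted p of 0.01 for genotype, and the block changed no other call. Leaving out a mouse in turn gave 1 to 3 genes with an unadjusted p under 0.05 (1 without Alb-Cre+ mouse 1 or 3 or Alb-Cre- mouse 3), 4 to 9 that did not overlap (5 without the first mouse of either genotype, 9 without either female), 17 to 26 in 1 direction in every pair left (26 without either female, where fewer pairs need to match), 1 to 5 of the other pathway genes (1 without the first Alb-Cre+ mouse, 5 without the Alb-Cre+ female), and a Surf4 log2 fold change of -0.72 to -0.52. Over all genes it gave 0 to 1 past the adjusted p of 0.01 for genotype, the 1 without Alb-Cre+ mouse 1. For genotype, shares of all genes at an unadjusted p are given only for all 6 mice, with and without the block. Counts under the other alternatives have no such share beside them and cannot be read as particular to the 36 genes. Once a mouse is left out, fewer values need to separate or match, which raises such counts in any set of genes. Genes past that threshold for sex numbered 73, 28 without a filter, 31 without the trend, 1019 at a threshold of 0.05, and 3 to 38 with a mouse left out, 3 without either female, where the lone female is assumed to vary like the males. The 11 of 36 for sex became 7 without the Alb-Cre+ female, in a range of 7 to 10 over the mice left out. Of 444 values of single genes under alternatives, 439 kept their direction; none was past an adjusted p of 0.01 to begin with, so the threshold says nothing of stability. The 5 that reversed were genotype values with a mouse left out, of Gpd1 (-0.011 without the third Alb-Cre- mouse, range to 0.49), Gpam (-0.0079 without the Alb-Cre+ female, range to 0.46), Dgat2 (-0.026 without the Alb-Cre+ female, range to 0.15) and Agpat3 (0.0095 without the third Alb-Cre+ mouse, range from -0.13), and the sex value of Dgat2 under median-of-ratios scaling (-0.025). Why they reversed was not tested. With 1 mouse left out, the values of the named pathway genes outside the 36 ran from -0.87 to -0.56 (Pnpla7), -0.48 to -0.21 (Gpat4), -0.64 to -0.22 (Mgll), -0.50 to -0.17 (Acsl5), -0.71 to -0.17 (Ppara), 0.26 to 0.87 (Lipe) and 0.32 to 0.71 (Mlxipl), and Gk was -0.39 without Alb-Cre+ mouse 3. The depth of the libraries is unknown, so low genes such as Mboat1, Mboat2 and Cds1 have no counting error here.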
